A study of Mus musculus with 6 samples.

Results

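The RNA exosome was examined through the 10 genes of its subunits, Exosc1 to Exosc10, which were taken by name and matched by Ensembl identifier to a table of 24190 genes. Of the 10, 9 could be tested. The expression of Exosc6 was not analysed here. Its only annotated exon, 1326 bases on chromosome 8 of GRCm38 from 111056339 to 111057664, lies wholly within exonic bases of Aars on the same strand. The cultures were MTO54, a mouse tumor organoid (MTO) line of colorectal cancer that the labels call AKP. All samples come from this single parental line, so they represent 1 tumor genotype. Organoids were seeded as single cells, and 2 days later received for 2 days either complete stem cell medium (3 control cultures) or the same medium with Folfiri (3 cultures), given as the fluoropyrimidine 5FU at 50 μg/μl (as printed in the labels) plus SN38, the active metabolite of irinotecan and a topoisomerase I inhibitor, at 100 nM.

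The exosome is the main machine that degrades and trims RNA from its 3′ end in the nucleus and the cytoplasm. Subunits related to bacterial RNase PH form a ring, a cap of RNA-binding subunits sits on it, and the RNA is threaded through to nucleases attached to this core, which has no catalytic activity of its own in mammals. Exosc10, the counterpart of yeast Rrp6, is the 3′ to 5′ exonuclease of the nuclear complex and trims precursors of ribosomal RNA and small nucleolar RNA. Its yeast counterpart is known for its link to 5FU, since strains with less Rrp6 are more sensitive to the drug. The comparison of Folfiri with control MTOs gives the transcript levels of the complex under a 5FU-based treatment.

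Promoter windows of GRCm38.p6 from RefSeq, 250 bases before to 50 after an annotated start, were found for 8 of the 10 genes (9 windows, as Exosc10 has 2). The 4 below are shown because they belong to the subunits with the largest increases, to the nuclease and to a subunit that fell. They run 5′ to 3′ along the strand of the gene, with matches to the searched motifs in capitals.
Exosc1, chr19:41933265-41933564, minus strand: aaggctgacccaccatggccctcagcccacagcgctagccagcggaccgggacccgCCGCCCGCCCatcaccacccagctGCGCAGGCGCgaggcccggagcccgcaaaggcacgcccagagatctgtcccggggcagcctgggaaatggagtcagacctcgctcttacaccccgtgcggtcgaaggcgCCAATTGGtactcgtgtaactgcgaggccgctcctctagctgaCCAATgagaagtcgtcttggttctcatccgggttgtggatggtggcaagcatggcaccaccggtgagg
Exosc2, chr2:31670465-31670764, plus strand: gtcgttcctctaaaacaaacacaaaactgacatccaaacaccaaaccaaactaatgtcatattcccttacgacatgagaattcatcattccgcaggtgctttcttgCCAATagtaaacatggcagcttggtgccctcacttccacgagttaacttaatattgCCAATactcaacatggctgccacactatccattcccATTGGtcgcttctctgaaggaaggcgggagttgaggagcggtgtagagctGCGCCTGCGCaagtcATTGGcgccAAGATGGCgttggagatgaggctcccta
Exosc10, chr4:148558169-148558468, plus strand: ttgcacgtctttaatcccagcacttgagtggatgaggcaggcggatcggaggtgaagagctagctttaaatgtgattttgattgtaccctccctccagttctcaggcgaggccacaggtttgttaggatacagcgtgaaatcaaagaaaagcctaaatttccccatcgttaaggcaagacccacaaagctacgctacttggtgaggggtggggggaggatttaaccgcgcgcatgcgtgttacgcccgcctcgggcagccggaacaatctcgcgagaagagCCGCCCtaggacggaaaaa
Exosc8, chr3:54735315-54735614, minus strand: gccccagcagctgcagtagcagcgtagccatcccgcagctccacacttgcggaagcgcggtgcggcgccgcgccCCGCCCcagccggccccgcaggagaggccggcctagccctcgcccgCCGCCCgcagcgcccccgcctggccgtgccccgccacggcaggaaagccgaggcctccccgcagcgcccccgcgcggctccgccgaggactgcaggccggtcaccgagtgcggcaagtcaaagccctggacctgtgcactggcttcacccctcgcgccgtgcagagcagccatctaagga

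Both strands were searched for the E-box CACGTG, the ETS core CCGGAAG, the NRF1 motif (GCGCA, any base, GCGC), the YY1 motif AAGATGGC, the GC box GGGCGG, the CCAAT box and the TATA box TATAAA. Adjoining or reversed matches may overlap, as with the CCAAT boxes on opposite strands in Exosc1. The NRF1 motif was found in 4 of the 8 genes (Exosc1, Exosc2, Exosc5 and Exosc7) and in 4.60% of all 32851 promoter windows. It began at position -170 from the start in Exosc1 and at -2 in Exosc2. The GC box was found in 6 genes, against 35.7% of all windows, and the CCAAT box in Exosc1, Exosc2 and Exosc5, against 37.4%. The ETS core was found in Exosc3 and in the second window of Exosc10 (8.86% of all windows), the E-box in Exosc5 (7.15%) and the YY1 motif in Exosc2 (2.75%). No member window held the TATA box, which 13.6% of all windows held. The 9 windows had a GC content from 48.0% to 75.7%, and the median over all windows was 52.7%. These matches describe letters in the windows and were not tested for an effect.

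Counts on genes ranged from 22103591 to 30098210 per library, and the lowest and highest counts of a tested subunit were 143 (Exosc7, control replicate 3) and 3766 (Exosc10, Folfiri replicate 3). The study calls the samples of a group biological replicates. All come from 1 organoid line, so the p-values measure the spread between cultures of that line. Control replicate 1 stood apart from the other controls. Its chi-square per degree of freedom was taken over the genes above a minimum count in each pair (14697 to 15926 genes). It was 23.7 and 22.4 against control replicates 2 and 3, while the value between these was 3.84. For Folfiri replicate 3 against the other treated samples it was 11.9 to 12.3, and between these 3.55. The 7 epithelial markers summed to 5811 to 6792 CPM (counts scaled for library size with TMM) in controls and 4762 to 4936 CPM after Folfiri, with 4 called lower (Epcam, Krt8, Krt19 and Cldn7), 1 called higher (Cdh1) and 2 not called (Krt18 and Vil1). The summed level of 6 fibroblast markers was 1.08 to 1.44 CPM in controls and 2.00 to 2.41 CPM after Folfiri, and that of 6 immune markers 0.640 to 0.720 CPM and 1.52 to 1.65 CPM. Of these, Col3a1, Thy1, Lyz2 and Tyrobp had at most 2 counts in any sample, and the higher sums came mainly from Dcn, Pdgfra and Ptprc, whereas Col1a1 fell from between 17 and 26 counts to between 8 and 11. Among endothelial markers Kdr had 0 counts in every control and at most 4 after treatment, and Pecam1 had 8 to 16 counts in any sample, whereas Cdh5 reached 64.9 to 124 CPM. Mitochondrial transcripts took 2.09% to 2.36% of counts in controls and 3.95% to 4.44% after Folfiri. The part of these differences in the results below was not tested.

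After 2 days of Folfiri, 7 of the 9 tested exosome subunits were higher and 2 were lower than in control MTOs (adjusted p under 0.05, edgeR's quasi-likelihood test). The treatment moved most of the transcriptome, and 79.1% of the 14692 tested genes passed this threshold (40.3% higher and 38.8% lower). The median log2 fold change of the 9 subunits was 1.06, beside 0.02 for all tested genes. Exosc1 and Exosc2, subunits of the cap, had the largest increases, 5 further subunits including the nuclease Exosc10 rose between 1.99-fold and 2.16-fold, and Exosc4 and Exosc8 of the ring fell. The control and treated samples of each tested subunit did not overlap, which was so for 81.4% of all tested genes. These are bulk measurements, in which fewer cells of a type and less RNA per cell cannot be told apart. Without control replicate 1 the counts were again 7 higher and 2 lower, with a median of 1.16, and without Folfiri replicate 3 they were 7 and 2 with a median of 0.99.

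**Figure D1:**
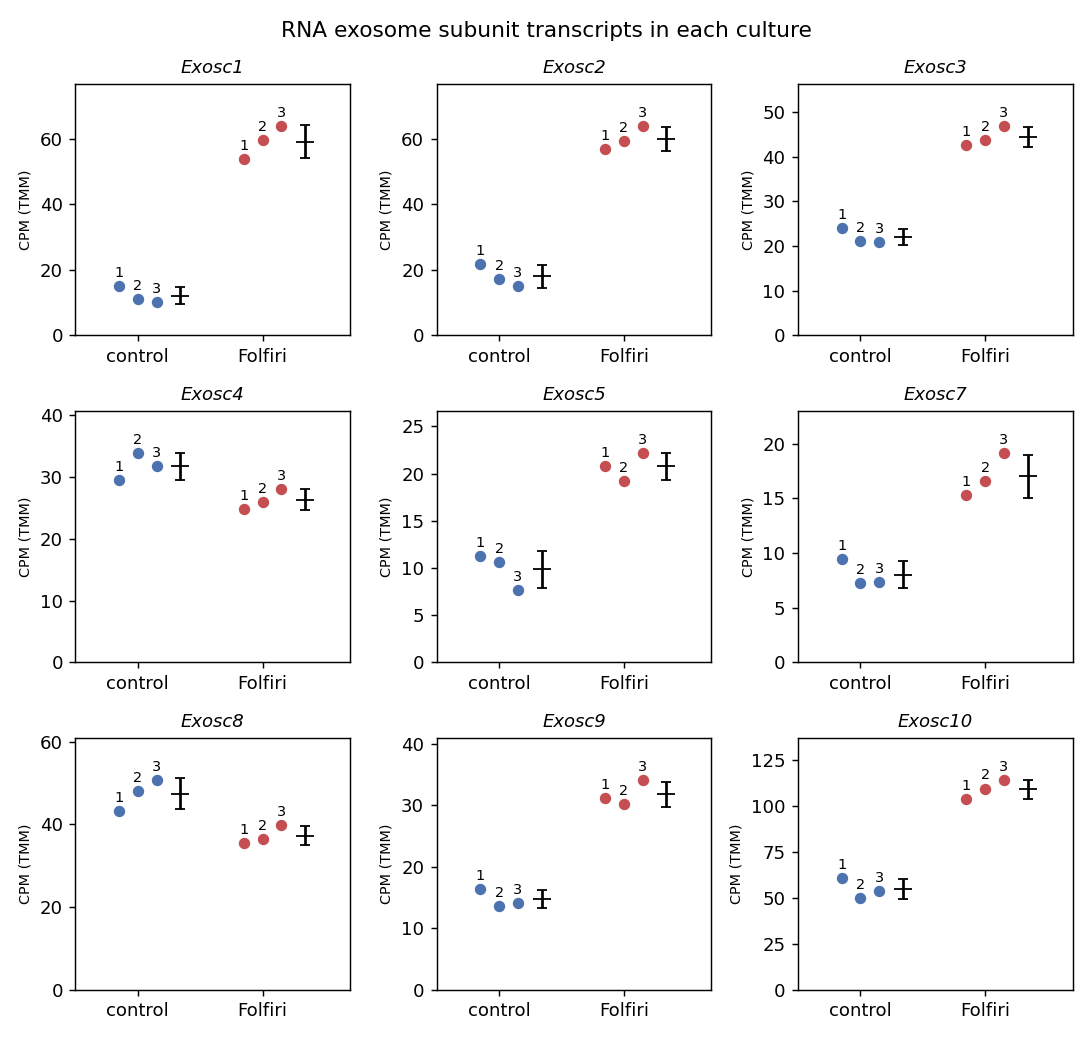
Level of each tested exosome subunit in every culture, as TMM-normalized CPM on an axis that starts at 0. Points are samples numbered by replicate (blue control, red Folfiri), and the black mark and bar are the mean and SD of 3 samples. The treated samples lie above the controls in 7 panels and below them for Exosc4 and Exosc8.

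The cap subunits bind RNA at the entrance of the central channel. Exosc1, the counterpart of yeast Csl4, lies on chromosome 19 from 41922292 to 41933423. Its level was 15.0, 11.0 and 10.1 CPM in control replicates 1, 2 and 3 and 53.9, 59.5 and 64.1 CPM in Folfiri replicates 1, 2 and 3. The lowest treated sample was thus far above the highest control, which was replicate 1. The means were 12.1 ± 2.60 and 59.2 ± 5.11 CPM (SD, n = 3 each), a 4.87-fold increase with a log2 fold change equal to 2.28 (SE 0.14, adjusted p = 1.29e-07, edgeR). Of all tested genes, 95.2% had a lower log2 fold change.

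Exosc2, the counterpart of yeast Rrp4, lies on chromosome 2 from 31670715 to 31681349. It stood at 21.8, 17.3 and 15.0 CPM in the controls and at 56.9, 59.4 and 64.1 CPM after Folfiri. Again the treated samples were close to each other and control replicate 1 was the highest control. The 3.32-fold increase corresponded to a log2 fold change equal to 1.73 (SE 0.12, adjusted p = 4.16e-07, edgeR), above that of 91.4% of tested genes. An antisense gene, Gm13427, covers 358 exonic bases of Exosc2, and had at most 14 counts in any sample.

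Exosc3, the counterpart of Rrp40 and the cap subunit mutated in a form of pontocerebellar hypoplasia, lies on chromosome 4 from 45316613 to 45342732. Its samples read 24.1, 21.2 and 21.0 CPM in controls and 42.6, 43.7 and 47.0 CPM after treatment, which is a narrow spread within each group. The increase was 2.01-fold, with a log2 fold change equal to 1.01 (SE 0.09, adjusted p = 1.59e-06, edgeR). The 3 cap transcripts thus all rose, by unequal amounts. Exosc3 shares 53 exonic bases with Dcaf10 on the opposite strand, which rose as well, at a log2 fold change of 0.82 (SE 0.10).

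The ring is built from pairs of RNase PH-like subunits. Exosc9, known as the autoantigen PM/Scl-75, lies on chromosome 3 from 36552606 to 36565727. Its values were 16.4, 13.6 and 14.1 CPM in controls and 31.1, 30.2 and 34.1 CPM after Folfiri. Every treated sample exceeded the highest control, and the log2 fold change was 1.11 (SE 0.10, adjusted p = 2.12e-06, edgeR). Its 3′ end overlaps that of Ccna2, the gene of cyclin A2, on the opposite strand over 510 exonic bases (10.8% of the exonic bases of Exosc9). Ccna2 changed the other way, from 326 ± 42.1 to 147 ± 4.95 CPM (SD, n = 3 each), at a log2 fold change equal to -1.14 (SE 0.10, adjusted p = 1.35e-06, edgeR). Since no source used here gives the strand setting with which reads were counted, reads from these shared bases cannot be assigned to a strand.

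Exosc7, on chromosome 9 from 123113215 to 123136129, was the least abundant subunit per library in controls. It had 9.43, 7.28 and 7.35 CPM there and 15.3, 16.6 and 19.2 CPM after Folfiri. Control replicate 1 and Folfiri replicate 3 were the highest of their groups. The log2 fold change was 1.08 (SE 0.14, adjusted p = 2.69e-05, edgeR), and no other annotated gene shares exonic bases with it.

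Exosc5, the counterpart of yeast Rrp46, lies on chromosome 7 from 25659164 to 25671368. It read 11.3, 10.7 and 7.66 CPM in controls, of which replicate 3 was the lowest, and 20.8, 19.3 and 22.2 CPM after Folfiri. The log2 fold change was 1.06 (SE 0.14, adjusted p = 3.58e-05, edgeR). Tmem91 on the opposite strand shares 355 exonic bases with Exosc5 and went from at most 4 counts in any control to between 38 and 42 counts after Folfiri, where Exosc5 had 597 to 732 counts.

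The other 2 tested ring subunits went down. Exosc4, the counterpart of yeast Rrp41, lies on chromosome 15 from 76327397 to 76330677. Its level was 29.5, 33.9 and 31.7 CPM in controls and 24.7, 26.0 and 28.1 CPM after Folfiri, so the groups were separate but close. The log2 fold change of -0.27 (SE 0.09, adjusted p = 0.0152, edgeR) is a 1.21-fold lower level. The call was lost without control replicate 2 (adjusted p = 0.0675), Folfiri replicate 1 (0.0722) or Folfiri replicate 2 (0.0582), and when libraries were scaled by their total counts alone the log2 fold change turned to 0.0076 (adjusted p = 0.938). Exosc4 shares 385 exonic bases, 19.8% of its own, with Oplah on the opposite strand, which fell at a log2 fold change of -0.62 (SE 0.12).

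Exosc8, the counterpart of Rrp43 and the most abundant ring transcript in controls, lies on chromosome 3 from 54728678 to 54735393. It measured 43.3, 48.0 and 50.8 CPM in controls and 35.4, 36.5 and 39.8 CPM after Folfiri. All treated samples lay below all controls, with control replicate 1 nearest to them. The log2 fold change was -0.35 (SE 0.09, adjusted p = 0.00358, edgeR), a 1.27-fold lower level, and with total counts only it was -0.07 (adjusted p = 0.450). The adjusted p stayed at or under 0.0213 in the 6 fits that each left out 1 sample. It shares 89 exonic bases with Supt20 on the opposite strand, whose log2 fold change was 0.01 (SE 0.07).

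Exosc10 lies on chromosome 4 from 148558429 to 148582401. It was the most abundant member in each library by CPM, with 60.6, 50.0 and 53.9 CPM in controls and 104, 109.6 and 114 CPM after Folfiri. The groups were far apart in relation to their spread, at 54.9 ± 5.38 and 109 ± 5.33 CPM (SD, n = 3 each). The increase was 1.99-fold, with a log2 fold change equal to 0.99 (SE 0.09, adjusted p = 1.55e-06, edgeR), larger than that of 80.3% of tested genes. Without any 1 sample it lay between 0.92 and 1.07, and no exonic base of Exosc10 is shared with another annotated gene. Exosc1 and Exosc7 are the other tested members without shared bases, and the median over these 3 was 1.08.

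**Figure D2:**
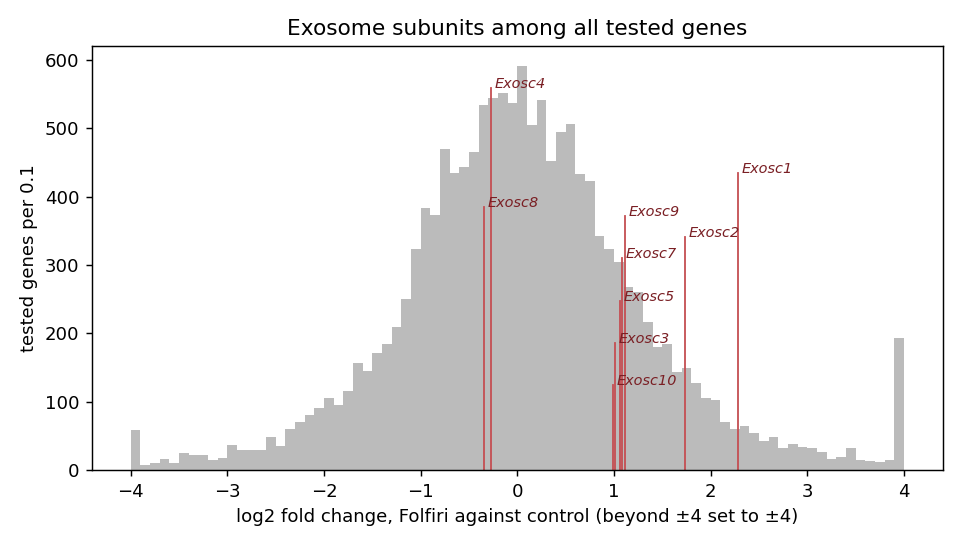
Distribution of log2 fold changes (Folfiri against control) of all 14692 tested genes in bins of 0.1, with values beyond 4 in either direction drawn at the edge. Red lines mark the 9 subunits at their fitted values and their height carries no value. Exosc4 and Exosc8 lie just left of 0, 5 subunits lie between 0.99 and 1.11, and Exosc2 and Exosc1 lie further right.

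The scaling of libraries shifts all of these values together. The TMM factors were 0.880 to 0.966 in controls and 1.10 to 1.11 after Folfiri. When total counts alone were used, the all-gene median moved by 0.28 on the log2 scale, and the subunits then counted 7 higher and 0 lower, with a median of 1.33. Relative to the median of all genes, Exosc10 was at 0.97 under both scalings, Exosc1 at 2.26 under both, Exosc8 at -0.37 with TMM and -0.36 with total counts, and Exosc4 at -0.29 under both. The 7 increases passed the threshold with the other 3 scalings that were tried, whereas the decreases of Exosc4 and Exosc8 passed it with DESeq2 size factors and upper quartile scaling and not with total counts.

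**Figure D3:**
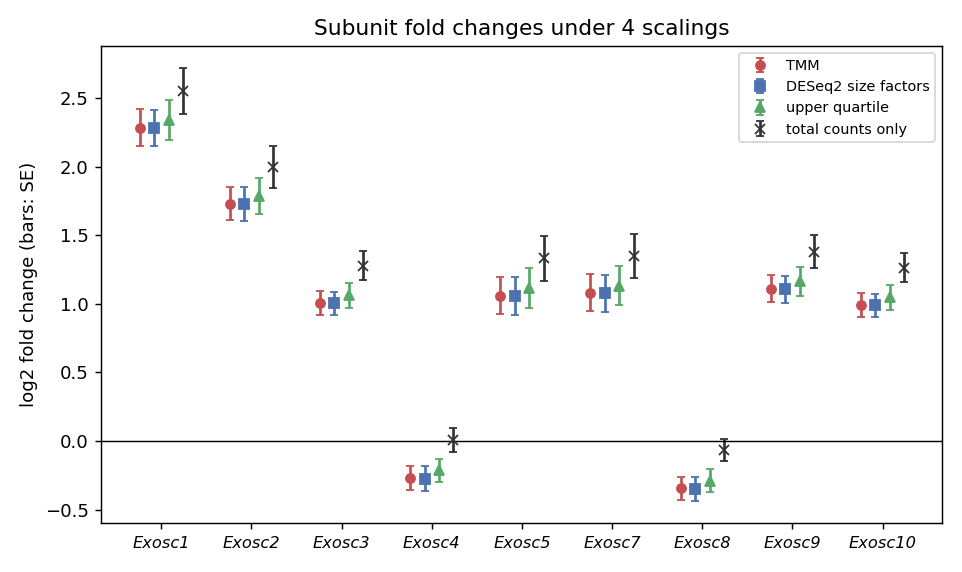
Fitted log2 fold change of each tested subunit (points, with SE bars) with libraries scaled by TMM, DESeq2 size factors, upper quartile or total counts only. The first 3 scalings gave similar values, and total counts moved each subunit up, which brought Exosc4 to 0.0076 and Exosc8 to -0.07.

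Ratios between subunits within a library hardly depend on that scaling. On the log2 CPM scale, Exosc10 exceeded the mean of the other 8 tested subunits by 1.66, 1.55 and 1.76 without treatment and by 1.69, 1.73 and 1.65 with it. The groups overlapped, and the mean differences were 1.66 ± 0.10 and 1.69 ± 0.04 (SD, n = 3 each). Other pairs, chosen after their values were seen, moved further. Exosc1 minus Exosc8 was -1.52, -2.11 and -2.32 among control replicates and 0.60, 0.70 and 0.69 among treated ones, so Exosc1 passed from below Exosc8 to above it. Exosc2 minus Exosc4 went from -0.83 ± 0.34 to 1.19 ± 0.01 (SD, n = 3 each), again with the order of the transcripts exchanged.

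Divided by the length of the principal coding transcript, CPM per kb gives levels that can be set against each other between genes. In control MTOs Exosc8 was the highest at 36.4 ± 2.89 CPM per kb (SD, n = 3), and its samples did not overlap those of the next, Exosc3, at 20.5 ± 1.60. Exosc3, Exosc10 (19.7 ± 1.93) and Exosc4 (17.6 ± 1.21) followed without a gap between neighbours. Exosc1 (11.8 ± 2.55), Exosc2 (10.7 ± 2.04), Exosc9 (9.10 ± 0.926) and Exosc7 (7.62 ± 1.16) were lower, and each overlapped the next in its sample values. Exosc5 was the lowest at 5.88 ± 1.16, and its highest sample (6.73) lay just under the lowest of Exosc7 (6.91).

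After Folfiri the order was different. Exosc1 was the highest at 58.1 ± 5.02 CPM per kb, and its samples did not overlap those of the next, Exosc3 (41.2 ± 2.13). Exosc3, Exosc10 (39.1 ± 1.91) and Exosc2 (35.7 ± 2.17) overlapped between neighbours in their sample values. Exosc8 (28.6 ± 1.75), Exosc9 (19.7 ± 1.26) and Exosc7 (16.2 ± 1.87) came next, each separate from the one before. Exosc4 (14.6 ± 0.934) overlapped Exosc7, and Exosc5 remained the lowest at 12.4 ± 0.876 CPM per kb. The ratio of the highest to the lowest member was 4.95, 5.81 and 8.56 among controls and 4.28, 5.10 and 4.76 among treated samples, which overlapped in this ratio. The place of a gene in these orders depends on the length used. With all annotated exonic bases as the length, Exosc3 was the highest in both groups and Exosc7 the lowest.

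**Figure D4:**
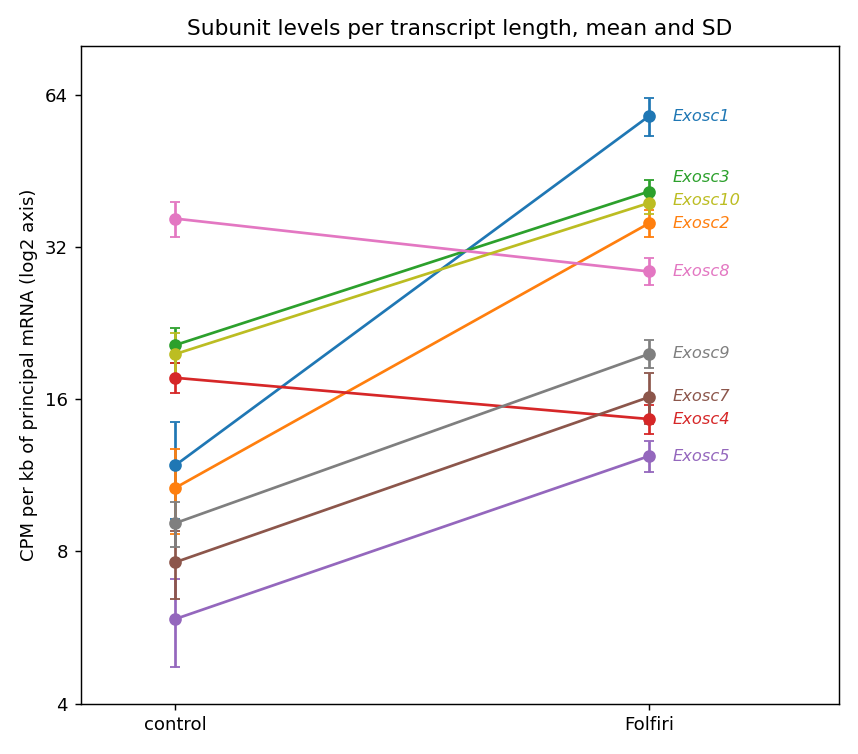
Mean level of each tested subunit per kb of its principal coding transcript in control and Folfiri MTOs, with SD bars over 3 samples, on a log2 axis. The lines of Exosc1 and Exosc2 cross those of Exosc8 and Exosc4, which slope down, and the lines of Exosc3 and Exosc10 run side by side.

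Among all tested genes, the 5 whose centred log2 CPM profile over the 6 samples lay nearest to that of Exosc10 were Rev1, a translesion DNA polymerase, Gm5472, Cdc6, which loads replicative helicases, Vps26a of the retromer and Faf2, which acts in protein degradation at the endoplasmic reticulum. Their Euclidean distances were 0.06 to 0.09 and their log2 fold changes 0.95 to 1.06. Exosc3 was the 8th nearest gene, at a distance of 0.10, and Exosc9 and Exosc7 were the 85th and 191st. Exosc5 was the 1428th, at 0.46, and Exosc2 the 4565th, at 0.97. Exosc1, Exosc4 and Exosc8 were each farther than 1.5 from Exosc10, at 1.63, 1.59 and 1.68.

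The core works with further nucleases and with cofactors that deliver RNA. Dis3, which joins the ring in the nucleus and holds exonuclease and endonuclease activity, read 39.5, 34.5 and 34.9 CPM in controls and 70.7, 78.9 and 71.1 CPM after Folfiri. The groups were separate by a wide margin, with a log2 fold change equal to 1.02 (SE 0.08, adjusted p = 1.26e-06, edgeR). Dis3l, the cytoplasmic counterpart, rose from 27.0, 27.1 and 27.2 to 44.6, 46.0 and 42.1 CPM, at a log2 fold change equal to 0.71 (SE 0.08, adjusted p = 7.64e-06, edgeR). Exosc10 exceeded Dis3 by 0.59 ± 0.05 in controls and 0.57 ± 0.11 after Folfiri on the log2 CPM scale (SD, n = 3 each), with overlapping groups. Dis3 exceeded Dis3l by 0.42 ± 0.11 and 0.73 ± 0.06, with separate groups. Dis3 shares 325 exonic bases with Pibf1 on the opposite strand, which fell at -0.30 (SE 0.10). This call was lost without Folfiri replicate 2 (adjusted p = 0.0731, edgeR) and with total counts only (-0.03, adjusted p = 0.817).

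Of the 18 nuclear cofactors listed, all were tested, and 11 were higher, 3 were lower and 4 did not pass the threshold (edgeR, with 40.3% of all genes higher and 38.8% lower). Their median log2 fold change was 0.27. The largest increase was that of Ncbp2, the cap-binding subunit of the nuclear cap-binding complex, from 30.1, 23.8 and 23.5 CPM to 82.1, 85.4 and 88.6 CPM. Its log2 fold change was 1.72 (SE 0.10, adjusted p = 1.19e-07, edgeR), and its partner Ncbp1 rose by 0.57 (SE 0.08). Srrt, the mouse ARS2 that links the cap-binding complex to RNA decay, rose at a log2 fold change of 1.17 (SE 0.08) from 179.6 ± 14.8 to 403 ± 6.41 CPM. Zc3h18, which bridges the cap-binding complex and the exosome adaptors, rose at 0.63 (SE 0.07).

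The helicase Mtrex, which unwinds RNA for the nuclear exosome, rose at a log2 fold change equal to 0.36 (SE 0.07, adjusted p = 0.00104, edgeR), and its inhibitor Nrde2 at 0.29 (SE 0.08). C1d, which docks on Exosc10, rose at 0.50 (SE 0.07), while Mphosph6 stood at 47.3 ± 1.35 and 48.4 ± 4.72 CPM (0.03, SE 0.09, adjusted p = 0.727, edgeR). Of the TRAMP complex, which adds short tails to RNA, the poly(A) polymerase Tent4a rose at 0.26 (SE 0.08), a call lost without Folfiri replicate 2 (adjusted p = 0.0536, edgeR). The polymerase Tent4b passed narrowly, at 0.19 (SE 0.08, adjusted p = 0.0465), and did not pass with DESeq2's Wald test (adjusted p = 0.0672) or without any 1 of the samples other than Folfiri replicate 3 (0.0604 to 0.154). Zcchc7, its RNA-binding partner, stood at 0.09 (SE 0.08, adjusted p = 0.336). With total counts only, Mphosph6 (0.31, adjusted p = 0.00888) and Zcchc7 (0.36, adjusted p = 0.00564) were called higher in edgeR.

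The adaptor complexes of Mtrex were split. In the NEXT complex, which targets short unprocessed transcripts, Zcchc8 rose at a log2 fold change of 0.42 (SE 0.08) and its RNA-binding partner Rbm7 fell at -0.49 (SE 0.09, adjusted p = 0.000533, edgeR), from 64.1, 75.4 and 80.8 CPM to 51.2, 51.8 and 54.1 CPM. In the PAXT connection, which targets longer polyadenylated RNA, Rbm27 rose at 0.95 (SE 0.09), whereas Rbm26 fell at -0.29 (SE 0.09) and Zfc3h1 at -0.22 (SE 0.08). The call of Rbm26 was lost without Folfiri replicate 3 (adjusted p = 0.0589, edgeR), and that of Zfc3h1 without control replicate 3 (0.0591), Folfiri replicate 2 (0.0576) or Folfiri replicate 3 (0.0595), or with upper quartile scaling (0.0601). With total counts only, Rbm26 was at -0.02 and Zfc3h1 at 0.054, and neither passed the threshold. The nuclear poly(A)-binding protein Pabpn1, at -0.12 (SE 0.12, adjusted p = 0.409), and the zinc finger protein Zc3h3, at 0.18 (SE 0.10, adjusted p = 0.117), did not pass it with TMM, though Pabpn1 was called lower without control replicate 1 (-0.27, adjusted p = 0.00218, edgeR) and Zc3h3 higher with upper quartile scaling (0.24, adjusted p = 0.0408) and total counts only (0.46, adjusted p = 0.000712).

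In the cytoplasm the exosome works with the Ski complex. Its helicase Skiv2l rose from 56.5 ± 1.94 to 91.3 ± 3.71 CPM (SD, n = 3 each), at a log2 fold change equal to 0.69 (SE 0.07, adjusted p = 5.32e-06, edgeR). Its subunit Wdr61 rose at 0.36 (SE 0.09) and Hbs1l, of which an isoform bridges Ski and exosome, at 0.32 (SE 0.07). The scaffold Ttc37 stood at -0.06 (SE 0.08, adjusted p = 0.488, edgeR). Over the 24 nucleases and cofactors together, 16 were higher and 3 lower, with a median of 0.34. With total counts only, 19 were higher and 1 lower, with a median of 0.61, and without Folfiri replicate 3 the counts were 16 and 1. The 19 called of 24 with TMM are a share close to the 79.1% of all tested genes.

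**Figure D5:**
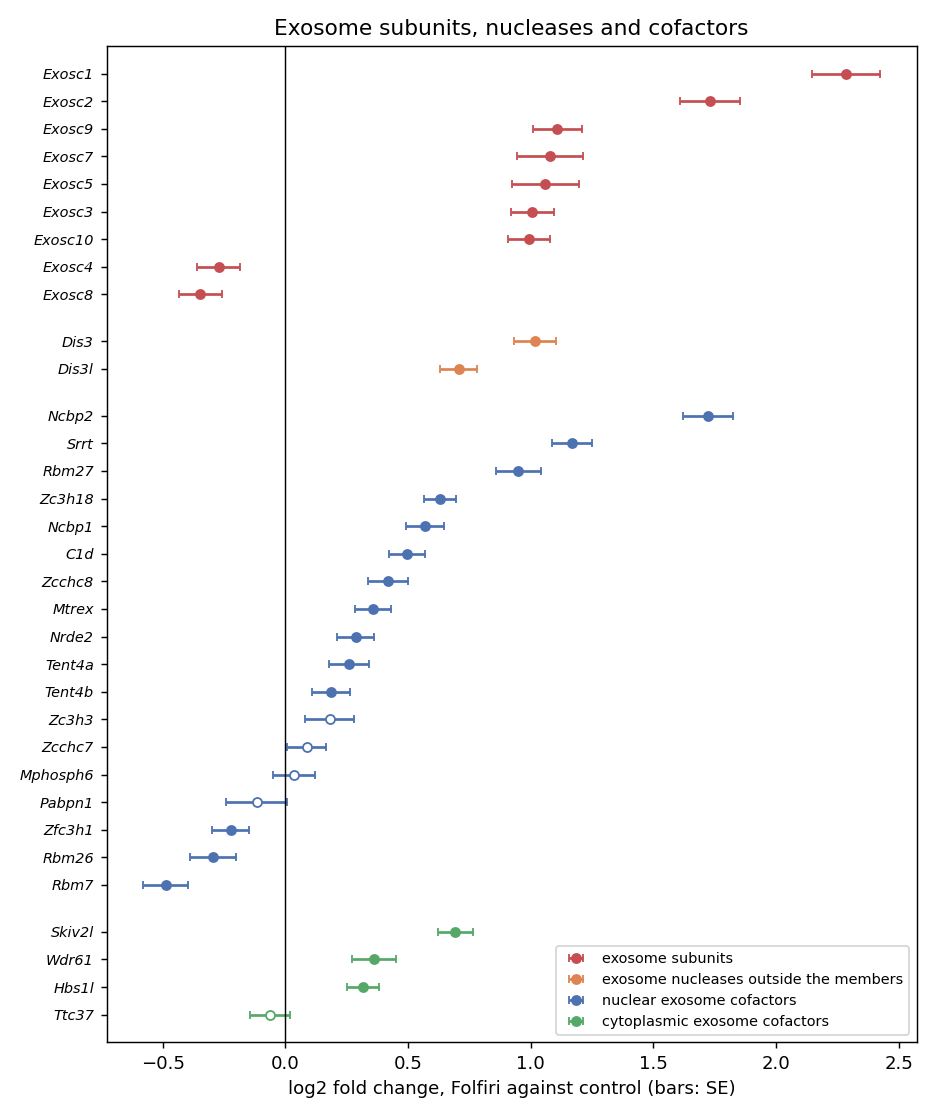
Log2 fold changes of the 9 tested subunits, 2 further nucleases, 18 nuclear and 4 cytoplasmic cofactors, with SE bars. Filled points passed an adjusted p under 0.05 (edgeR) and open points did not. The subunits range from -0.35 for Exosc8 to 2.28 for Exosc1 and the cofactors from -0.49 for Rbm7 to 1.72 for Ncbp2.

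Other genes of RNA decay were counted for comparison. Of 11 genes of decapping, decay from the 5′ end and exosome-independent 3′ decay, 5 were higher and 2 lower, beside 40.3% and 38.8% of all tested genes, with a median log2 fold change of -0.03. With total counts only, 6 were higher and 2 lower, with a median of 0.25. Without 1 sample the median ranged from -0.11 (Folfiri replicate 1 left out) to 0.13 (Folfiri replicate 3 left out). Among the 5, the exonuclease Xrn2 at 0.19 (SE 0.08) lost its call without any 1 of the samples other than control replicate 1 (adjusted p = 0.052 to 0.180, edgeR). Dis3l2, a relative of Dis3 that degrades uridylated RNA without the exosome, fell from 13.0, 15.4 and 15.3 CPM to 4.09, 4.23 and 3.91 CPM, at a log2 fold change equal to -1.83 (SE 0.12, adjusted p = 2.45e-07, edgeR). The decapping factors Edc4 and Dcp1a rose at 1.15 (SE 0.08) and 1.07 (SE 0.07), and the decapping enzyme Dcp2 at 0.60 (SE 0.08). Of 13 genes of deadenylases and other subunits of their complexes, 4 were higher and 5 lower, beside the same 40.3% and 38.8%, with a median of -0.08. With total counts only, 8 were higher and 4 lower, with a median of 0.19. Cnot10 at 0.20 (SE 0.07), one of the 4 higher with TMM, lost its call without any 1 of the samples other than control replicate 1 (adjusted p = 0.0542 to 0.132, edgeR). Parn, a nuclease that trims short tails from messenger and small RNA, fell from 36.8, 35.1 and 37.4 CPM to 9.76, 8.55 and 8.83 CPM, a log2 fold change equal to -2.01 (SE 0.09, adjusted p = 1.97e-08, edgeR). Cnot6l fell at -1.59 (SE 0.10) and Pan2 at -0.91 (SE 0.10), while Cnot11 rose at 1.16 (SE 0.12).

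Of 6 noncoding RNAs listed as possible targets of the exosome, Rn7sk, the 7SK RNA that holds the elongation factor P-TEFb, was the only one with enough counts for a test. It had between 4.03 and 9.72 CPM in controls and 16.5, 19.4 and 17.3 CPM after Folfiri, at a log2 fold change equal to 1.38 (SE 0.23, adjusted p = 0.000249, edgeR). The controls spread widely but stayed below all treated samples. The libraries were made from polyadenylated RNA and 7SK has many genomic copies, so its value is uncertain. Rny1 and Rny3 had at most 5 counts in any sample, and Terc, Rmrp and Rpph1 were not analysed here.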

How the data were processed

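RNA of 3 control and 3 Folfiri-treated MTO54 cultures was sequenced from poly(A)-selected libraries. The authors aligned reads with STAR v2.5.2 to GRCm38 with GENCODE vM25 annotation, obtained counts per gene with Rsubread and deposited these raw counts as they were. The strand setting and the treatment of reads that overlap more than 1 gene are not given in the sources used here.

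Samples were grouped by their titles. Genes were matched by Ensembl identifier to GENCODE vM21 on the same build (24168 of 24190). The main test was edgeR 4.0.16 (R 4.3.3), with its default expression filter, TMM scaling, the quasi-likelihood F test and Benjamini-Hochberg adjustment over all 14692 tested genes at 0.05. SEs are the absolute log2 fold change divided by the root of F. CPM are TMM-scaled, and log2 CPM used a prior count of 2. Alternatives were 3 other scalings, 2 other filters, DESeq2 1.42.0, a replicate block, each sample left out and, added after seeing the data, members without shared exonic bases. The test was checked on simulated counts. Counting error alone bounds the precision of low counts. The members and gene lists were chosen with earlier results of these data known. All subunits, nucleases and cofactors are named. From the other decay lists the genes named are up to 4 per list with the largest called change and separate groups, and others only where an alternative changed their sign or call. Also named are genes that share exonic bases with a member or lie nearest to Exosc10.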

Additional observations from a re-analysis of the deposited data

How the results depend on the processing

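All 7 increases among the exosome subunits passed the threshold under each of the 13 alternative fits. The number of subunits called was 9, and 7 with total counts only, and 8 to 9 across the 6 fits without 1 sample. The number of nucleases and cofactors called was 16 to 20 under all alternatives, and that of all genes 10630 to 12742. The median of the subunits was 0.97 to 1.16 without 1 sample and moved to 1.33 with total counts only, where the median of all genes shifted by 0.28, and where Exosc4 (0.0076), Zfc3h1 (0.054), Edc3 (0.15), Cnot3 (0.19) and Cnot7 (0.19) changed sign and either lost or gained a call. Pabpn1 (0.17), Ttc37 (0.21), Ddx6 (0.25), Xrn1 (0.20) and Aars (0.14) also turned positive there and were not called under either scaling. There the share of higher genes among all calls was 63.3% in place of 51.0%. Deviations from the group mean correlated at r = 0.03, -0.12 and 0.04 over 14692 genes between samples with the same replicate number. Between samples with different numbers r ranged from -0.12 to 0.12. With 3 samples per group, these values cannot decide whether the numbers pair the samples. With the number as a replicate block, 11499 genes and 9 subunits were called, and the median of the subunits was 1.07. The number of samples, 3 per group, limits all calls.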

Other observations

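For all 9 tested subunits, control replicate 1 was the control that lay nearest to the treated samples, above the other controls for each subunit that rose and below them for Exosc4 and Exosc8. Over all 11623 called genes the same library was nearest for 60.8%, control replicate 2 for 19.3% and control replicate 3 for 19.9%. Folfiri replicate 3 was the farthest from the controls for 7 of the 9 subunits and for 40.6% of called genes, and it was the treated sample nearest to the controls for Exosc4 and Exosc8. Without control replicate 1, the log2 fold changes were 2.48 for Exosc1, 1.89 for Exosc2, 1.07 for Exosc10, -0.32 for Exosc4 and -0.41 for Exosc8, each farther from 0 than with all samples. The summed level of the 9 subunits was 232, 213 and 212 CPM in control replicates 1, 2 and 3 and 384, 401 and 433 CPM in Folfiri replicates 1, 2 and 3.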
